A study of Mus musculus with 4 samples.

Results

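The cells described here are peptide hormone enteroendocrine cells of the mouse small intestine, the rare hormone-secreting cells of the gut lining, in single-cell RNA sequencing of 4 libraries. A library's barcodes, each standing for 1 captured droplet, were first kept with at least 1000 UMIs (unique molecular identifiers, 1 per captured RNA molecule), at least 500 genes and under 30% of UMIs from mitochondrial genes. Cells were then chosen by their own RNA: the UMIs of the peptide hormone genes Gip, Nts, Pyy, Gcg, Cck, Ghrl and Sst had to sum to at least 20 per 10000 UMIs, with under 2 UMIs each of Tph1, which marks serotonin-producing enterochromaffin cells, and Neurog3, which marks enteroendocrine progenitors. This left 509 of 32872 kept barcodes. Hormone-high barcodes with 2 or more UMIs of Tph1 numbered 6 in mutant 1, 5 in mutant 2, 10 in wild type 1 and 0 in wild type 2 and were not used. Because the rule used these genes, the levels of the hormones, Tph1 and Neurog3, and every difference between the chosen cells and the other barcodes, are given as a description with no test.

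The study set mice with the mitochondrial DNA point mutation G5081A, which lies in the alanine tRNA gene TrnA, against wild type mice, all aged 25 weeks. The labels give a mutation load of 77% for mutant 1 and of 81% for mutant 2. The 2 mutant and 2 wild type libraries hold epithelial cells sorted by flow cytometry after staining for CD45, CD31, TER-119, CD326 (EpCAM) and DAPI, and the labels do not say whether each library came from a separate animal or from a pool, so p-values measure the spread between libraries, which may be technical. Set A here means mutant 1 and wild type 1, whose titles name no sex, and set B means mutant 2 and wild type 2, which are titled male.

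Enteroendocrine cells arise from crypt stem cells and release peptides into the blood in response to nutrients. The classical subtypes are named for their main product: K cells make the incretin GIP, L cells make GLP-1 from proglucagon (Gcg) together with peptide YY, N cells make neurotensin, I cells make cholecystokinin, X cells make ghrelin and D cells make somatostatin. Each prohormone is cut by convertases, packed with granins into dense-core granules and released by calcium-triggered exocytosis, and many of these cells are known to make more than 1 hormone.

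The 250 bases before the start of 4 of the hormone genes, those that lead the Gip, Nts, Gcg and Sst groups described below, are printed from RefSeq on build GRCm38.p6, the build the deposited counts name as mm10. The genes are annotated at chr11:96024545-96030831 (Gip), chr10:102481756-102490486 (Nts), chr2:62474530-62483650 (Gcg) and chr16:23889573-23890958 (Sst) in GENCODE, whose starts differ from the RefSeq starts for Nts, Gcg and Sst. Each window runs 5′ to 3′ toward the gene. Capitals mark 3 motifs searched on both strands: TGACGTCA, the cyclic AMP response element; CANNTG, the E-box, which basic helix-loop-helix factors such as Neurod1 can bind; and AGATAA, read as TTATCT on the other strand, a GATA site.
Gip, chr11:96024295-96024544, plus strand: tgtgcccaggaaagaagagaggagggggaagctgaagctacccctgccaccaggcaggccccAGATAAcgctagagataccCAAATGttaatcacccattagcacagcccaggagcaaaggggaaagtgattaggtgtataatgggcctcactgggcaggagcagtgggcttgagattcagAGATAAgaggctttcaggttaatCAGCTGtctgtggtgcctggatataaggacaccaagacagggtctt
Nts, chr10:102490419-102490668, minus strand: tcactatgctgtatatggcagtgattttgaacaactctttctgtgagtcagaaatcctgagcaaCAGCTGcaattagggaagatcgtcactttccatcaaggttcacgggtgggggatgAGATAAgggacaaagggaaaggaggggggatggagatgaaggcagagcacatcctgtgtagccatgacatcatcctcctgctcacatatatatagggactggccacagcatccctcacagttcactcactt
Gcg, chr2:62483654-62483903, minus strand: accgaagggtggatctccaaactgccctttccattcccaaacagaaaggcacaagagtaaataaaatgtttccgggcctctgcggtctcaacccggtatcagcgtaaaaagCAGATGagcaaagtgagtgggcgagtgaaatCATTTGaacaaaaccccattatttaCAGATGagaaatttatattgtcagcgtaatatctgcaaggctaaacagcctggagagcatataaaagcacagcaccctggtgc
Sst, chr16:23890845-23891094, minus strand: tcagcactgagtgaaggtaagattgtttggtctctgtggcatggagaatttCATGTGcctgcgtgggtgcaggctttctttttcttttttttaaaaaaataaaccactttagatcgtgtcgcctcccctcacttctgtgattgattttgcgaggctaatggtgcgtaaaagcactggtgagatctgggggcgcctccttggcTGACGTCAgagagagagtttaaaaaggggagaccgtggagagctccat

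Of the 4 windows, the Sst window held TGACGTCA, with its first base 48 bases before the start, and 1.55% of 32851 mouse promoter windows of the same length held that motif. The Gip window held AGATAA at 188 and 69 bases before the start, and the Nts window held it at 131 bases, against 9.99% of all windows. At least 1 E-box was in each of the 4 windows, as in 66.2% of all windows. CAGATG, an E-box that overlaps CANNTG, stood in the Gcg window at 139 and 83 bases before the start and in 14.4% of all windows. CAGCTG, another E-box, stood at 46 bases in the Gip window and 186 bases in the Nts window and in 4271 of the 32851 windows. TAATTA, a homeodomain core, was in none of the 4 windows and in 4.84% of all windows. These are matches of letters, and binding was not measured.

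The chosen cells numbered 204 in mutant 1, 92 in mutant 2, 109 in wild type 1 and 104 in wild type 2, and held between 1036977 and 1657763 UMIs per library. Their median depth was 6296, 9636, 12886 and 9307 UMIs in the same order of libraries, against 9922, 11060, 21374 and 11301 UMIs in the other kept barcodes. Wild type 1 was thus sequenced most deeply per cell and mutant 1 least deeply. Mitochondrial UMIs were a smaller part of the chosen cells (medians of 3.12%, 2.33%, 2.03% and 2.12%) than of the other barcodes (5.13%, 4.61%, 4.27% and 4.95%). At 1000 UMIs per barcode the chosen cells showed medians of 697, 699, 683 and 689 genes, against 659, 628, 660 and 637 in the other barcodes. By scrublet, a scorer of droplets with 2 cells, 16.2%, 19.6%, 10.1% and 15.4% of the chosen cells were called, against 9.08%, 6.78%, 3.46% and 6.43% of the other barcodes. The share called in a library was set in advance from its number of kept barcodes, at 0.8% per 1000. It therefore does not measure a difference in doublets between libraries. Libraries shared between 26 and 60 barcode sequences by pairs, and no pair shared a barcode that was a chosen cell in both.

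The name enteroendocrine was checked against 17 genes that the rule did not read, among them the granins Chga and Chgb and the transcription factors Neurod1, Insm1, Pax6, Isl1 and Nkx2-2. Their summed UMIs had a median of 79.8, 117, 86.4 and 111 per 10000 UMIs in the chosen cells of mutant 1, mutant 2, wild type 1 and wild type 2, against 0 in the other barcodes of each library. With a hormone sum of 100 or more, 408 of 408 cells held at least 5 UMIs per 10000 of these genes, and with a sum of 50 to 100, 36 of 37 did. Just inside the threshold, at sums of 20 to 25, 9 of 23 did, and just outside it, at sums of 15 to 20, 17 of 59 did, while at sums under 5 the count was 284 of 30683. Over the range of sums from 20 to 50 the share was 51.7% of 29 cells in mutant 1, 100% of 6 in mutant 2, 21.1% of 19 in wild type 1 and 50.0% of 10 in wild type 2. The name therefore holds plainly for cells above a sum of 50, while 30 of the 64 cells below it showed the wider enteroendocrine genes at that level.

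**Figure D1:**
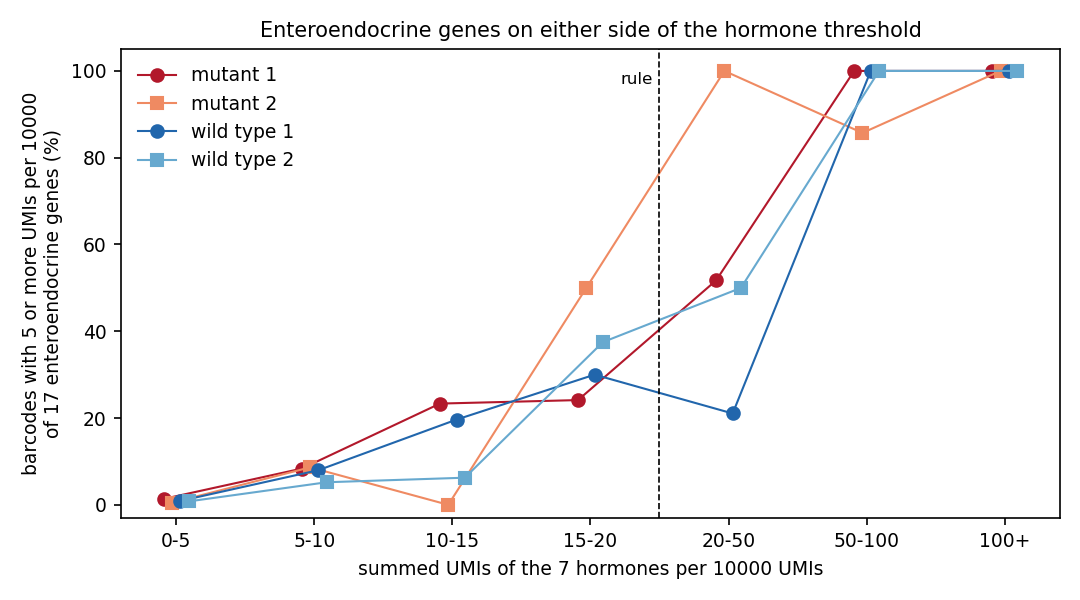
Share of barcodes with at least 5 UMIs per 10000 of 17 enteroendocrine genes (y axis, percent) by bin of the 7-hormone sum per 10000 UMIs (x axis), for each library. The dashed line marks the rule at 20. The share lies between 0.502% and 1.37% at sums under 5 and reaches 100% in each library at sums of 100 and above.

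Peptide hormone cells were 1.77% of kept barcodes in mutant 1 (exact Clopper-Pearson 95% interval 1.54 to 2.03%) and 1.06% in mutant 2 (0.859 to 1.30%), against 2.40% in wild type 1 (1.98 to 2.89%) and 1.27% in wild type 2 (1.04 to 1.54%). The share was lower in the mutant than in the wild type of the same set, but the genotypes overlapped, because wild type 2 lay below mutant 1. The mean was 1.42% ± 0.502 in mutant and 1.84% ± 0.802 in wild type (SD, n = 2 each), a difference of -0.419 percentage points (set A -0.631, set B -0.206). The two-sided p was 0.667 by exact permutation of the libraries, a design in which p cannot go below 0.33. Without wild type 1 the difference was 0.149 points, but that comparison leaves mutant 1 without the wild type library of its set. Set B alone, which does not hold wild type 1, gave -0.206 points. With each barcode thinned to 3000 UMIs, which left out between 547 and 2025 shallower barcodes per library, the shares were 1.59%, 1.24%, 2.26% and 1.53% in mutant 1, mutant 2, wild type 1 and wild type 2. The intervals cover counting error only.

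**Figure D2:**
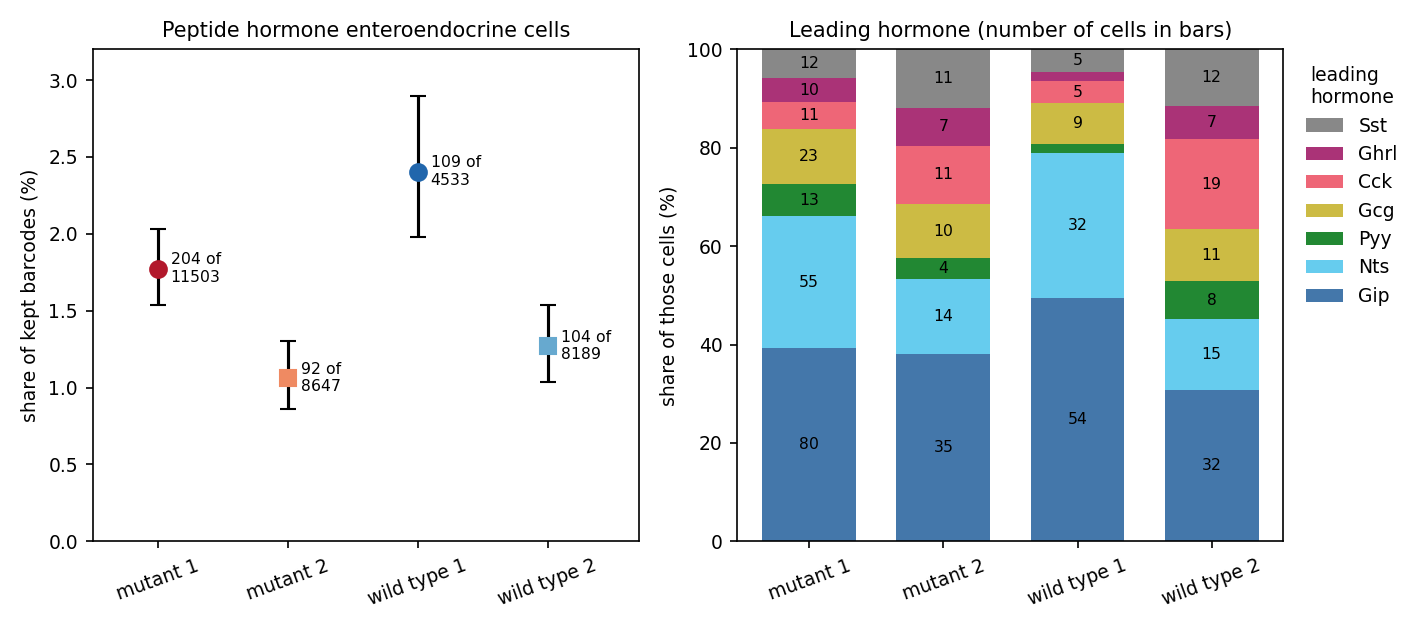
Left, peptide hormone cells as a percent of kept barcodes in each library, with exact 95% binomial intervals. Right, the same cells split by leading hormone, as a percent of the peptide hormone cells of each library. Mutant 1 at 1.77% lies between wild type 2 at 1.27% and wild type 1 at 2.40%.

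Each cell was then assigned to its leading hormone, the 1 of the 7 with most UMIs in it. Gip led in 201 cells, Nts in 116, Gcg in 53, Cck in 46, Sst in 40, Pyy in 27 and Ghrl in 26. Gip-led cells, which correspond to the K cell product, were 80 of 204 cells in mutant 1, 35 of 92 in mutant 2, 54 of 109 in wild type 1 and 32 of 104 in wild type 2, a mean over the 4 libraries of 39.4% ± 7.73 (SD). They were the largest group in each library. Nts-led cells averaged 21.5% ± 7.77, with 55 and 14 cells in mutant 1 and mutant 2 and 32 and 15 in wild type 1 and wild type 2, so that they were more frequent in both libraries of set A (27.0% and 29.4%) than in set B (15.2% and 14.4%). Cck-led cells ran the other way by set: 5.39% in mutant 1 and 12.0% in mutant 2, against 4.59% in wild type 1 and 18.3% in wild type 2. At a hormone sum of 50 or more, the Cck-led share was 9.30% in mutant 2 and 13.8% in wild type 2. Without cells with markers of other cell types it was 12.1% in mutant 2 and 13.8% in wild type 2. Gcg-led cells varied least, at 11.3% and 10.9% in the mutant libraries against 8.26% and 10.6% in the wild type libraries. Between genotypes, the Gip-led share differed by -10.3 points in set A and 7.27 points in set B, so the sets went opposite ways. The size in set A rested on the cells near the threshold: with a hormone sum of 50 or more the difference was -2.83 points in set A (38.3% in mutant 1 against 41.1% in wild type 1) and 7.72 points in set B. With at least 5 UMIs per 10000 of the general enteroendocrine genes it was -2.54 and 7.15 points, and with each cell thinned to 3000 UMIs it was -1.59 and 7.95 points. The other groups averaged between 5.06% (Pyy) and 8.49% (Sst) of the cells.

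These hormones made up a large part of the RNA of the cells that made them. The 7 together took 7.35% of all UMIs in the chosen cells of mutant 1 and 6.87% in mutant 2, against 11.2% in wild type 1 and 9.62% in wild type 2. The median sum per 10000 UMIs was 564 and 616 in mutant 1 and mutant 2, and 509 and 996 in wild type 1 and wild type 2. In the single cell with most hormone RNA, in mutant 1, the 7 hormones took 4047 of every 10000 UMIs. Over the cells of all libraries, Sst-led cells had the highest median of their own hormone, 1059 per 10000 UMIs, followed by Gip-led cells (773), Pyy-led cells (567), Nts-led cells (492), Gcg-led cells (408), Ghrl-led cells (166) and Cck-led cells (137). The order varied between libraries, and in mutant 2 the 11 Sst-led cells had a median of 442, below its Gip-led (773), Pyy-led (659) and Nts-led cells (591). The kit counts 1 tag per molecule at its 3′ end, so these levels do not scale with gene length.

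Summed over the chosen cells of a library and scaled to counts per 1000000 UMIs (CPM), Gip stood at 28107 and 27305 CPM in mutant 1 and mutant 2, against 61278 and 28739 CPM in wild type 1 and wild type 2. Wild type 1 stood apart from the other 3 libraries, which lay close to each other. Somatostatin, which restrains the release of other gut hormones, was lower in both mutant libraries (Sst at 4812 and 6068 CPM) than in both wild type libraries (7278 and 12369 CPM). Peptide YY, an L cell hormone that slows gut transit and reduces appetite, did not overlap between genotypes either: Pyy had 8944 and 6575 CPM in mutant and 11951 and 11108 CPM in wild type. The share of all genes without overlap was not counted. By the looser mark of being lower in the mutant of both sets, 29.1% of 10259 genes were. The separation of these hormones is thus no evidence of a genotype difference. Cck, whose product drives gallbladder contraction and pancreatic secretion, had 4994 and 7026 CPM in mutant and 6357 and 10885 CPM in wild type, which overlap. Nts had 18414 and 13829 CPM in mutant and 19597 and 17849 CPM in wild type. Gcg had 6361 and 2964 CPM in mutant against 5069 and 9979 CPM in wild type, higher in the mutant of set A and lower in the mutant of set B. Ghrl followed the set, with 1884 CPM in mutant 1 and 846 CPM in wild type 1 but 4903 CPM in mutant 2 and 5271 CPM in wild type 2. These values mix how many cells of each kind a library held with how much each cell made, and these cannot be told apart in the sums. Secretin, which stimulates bicarbonate secretion and was not in the rule, was the most abundant other peptide hormone: Sct had 14877 and 16965 CPM in the mutant libraries, 22894 and 17889 CPM in the wild type libraries and 62.0 to 113 CPM in the other barcodes. Tph1 had 0 to 4 UMIs and Neurog3 0 to 2 UMIs over the chosen cells of a library.

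Most chosen cells carried more than 1 hormone. At 20 or more UMIs per 10000 as the mark of a carried hormone, 265 of 509 cells (52.1%) carried at least 2 of the 7, 213 carried 1 and 31 carried none, their sum being spread over several. The share with at least 2 was 45.1% in mutant 1 and 58.7% in mutant 2, against 45.9% in wild type 1 and 66.3% in wild type 2, higher in both libraries of set B. It was 39 of 78 cells (50.0%) among called doublets and 226 of 431 cells (52.4%) among the rest. In 4858 enterocyte barcodes, which should lack these hormones, the same mark was reached by 3 barcodes for Gip, 6 for Nts, 1 each for Gcg, Cck and Sst and none for Pyy and Ghrl, although 14.5% of them held at least 1 UMI of Gip and 10.4% of Nts at a median depth of 3723 UMIs.

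The combinations followed the leading hormone. Of 40 Sst-led cells, 24 (60.0%) also carried Ghrl, in each library (5 of 12 and 8 of 11 in mutant 1 and mutant 2, and 2 of 5 and 9 of 12 in wild type 1 and wild type 2), 14 carried Gip, and none carried Cck, Nts or Gcg. Ghrl-led cells, in turn, carried Sst in 0 of 26 cells. Of 53 Gcg-led cells, 37 (69.8%) carried Cck, 23 carried Pyy, 11 carried Ghrl and none carried Gip. Gip-led cells carried Cck in 72 of 201 cells and Pyy in 44, and Gcg in none, so that Gip and Gcg did not meet at this level in cells led by either. Nts-led cells carried Pyy in 31 of 116 cells and Cck in 19. Pyy-led cells carried Cck in 17 and Nts in 15 of 27 cells. Secretin reached the same mark in 27 of 27 Pyy-led cells, 91 of 116 Nts-led cells and 138 of 201 Gip-led cells, but in 14 of 40 Sst-led cells. Without called doublets the main pairs kept similar shares: Ghrl in 18 of 31 Sst-led cells (58.1%), Cck in 34 of 49 Gcg-led cells (69.4%), Cck in 63 of 170 Gip-led cells (37.1%) and Pyy in 21 of 94 Nts-led cells (22.3%).

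**Figure D3:**
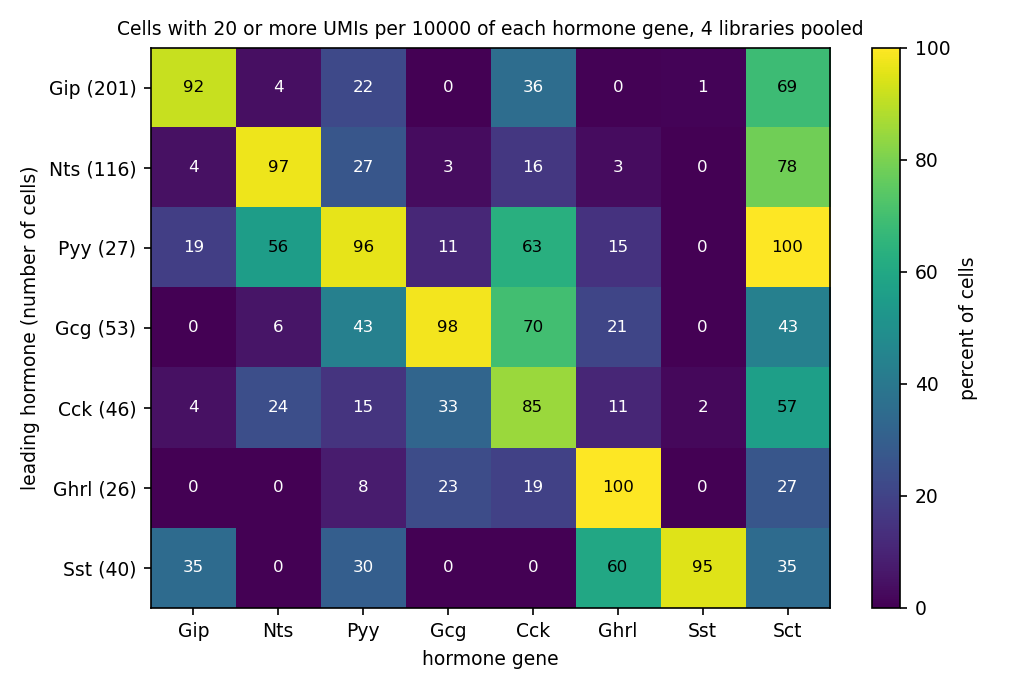
Percent of cells of each leading hormone group (rows) that carry each hormone at 20 or more UMIs per 10000 (columns), pooled over the 4 libraries. The Sst row meets the Ghrl column at 60.0%, the Gcg row meets the Cck column at 69.8%, and the Gip row meets the Gcg column at 0%.

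The groups differed in genes beyond the hormones, given here as levels because the groups were cut from the same RNA. In Gip-led cells, which numbered at least 32 in every library, the genes furthest above the other chosen cells in each of the 4 libraries were led, after Gip, by Pdk4, a kinase that inhibits pyruvate dehydrogenase, at 102 CPM ± 39.8 (SD over 4 libraries) against 1.81 CPM in the others. It was detected in 76 of 201 Gip-led cells and 5 of 308 others. Cnr1, the cannabinoid receptor CB1, stood at 288 CPM ± 59.8 against 8.29 CPM, in 138 of 201 cells against 11 of 308. Fabp5, a fatty acid binding protein, was the most abundant of them after Gip, at 11335 CPM ± 1070 against 995 CPM. Pkib, an inhibitor of protein kinase A, had 510 CPM against 23.9 CPM, and the hyaluronan receptor Cd44 had 525 CPM against 45.0 CPM.

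The leading genes of the 6 smaller groups were picked out after their values were seen, since those groups held under 20 cells in at least 1 library. Nts-led cells held Adgrd1, an adhesion G protein-coupled receptor, at 1281 CPM ± 371 against 19.5 CPM in the other chosen cells, in 96 of 116 cells against 23 of 393. They also held the signalling regulator Rgs6 at 258 CPM against 6.02 CPM and Nt5e, which makes adenosine outside the cell, at 440 CPM against 40.8 CPM. Pyy-led cells had the highest secretin level, 55472 CPM ± 16887. Gcg-led cells held the surface protease Fap in 30 of 53 cells, against 20 of 456 others. Hoxb8, a homeobox gene of posterior identity, averaged 230 CPM ± 202 in Pyy-led cells and 200 CPM ± 58.4 in Gcg-led cells, and between 2.22 and 35.0 CPM in the other 5 groups. Hoxb8 was thus highest in the Pyy-led and Gcg-led groups, although the 2 Pyy-led cells of wild type 1 held 0 UMIs of Hoxb8. It was detected in 10 of 27 Pyy-led cells and 18 of 53 Gcg-led cells. In mutant 2, 26 of the 30 Hoxb8 UMIs of Pyy-led cells were in 1 cell.

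Ghrl-led cells held Mboat4, the acyltransferase that activates ghrelin, in 18 of 26 cells against 30 of 483 others, at 163 CPM ± 23.02 against 8.91 CPM. Zcchc12 was detected in 16 of 26 Ghrl-led cells and 6 of 483 others. The short-chain fatty acid receptor Ffar2 was highest in this group at 313 CPM ± 166. Sst-led cells held several genes that were rare in the other chosen cells. Iapp, which encodes amylin and is co-made with hormones in pancreatic islets, stood at 6555 CPM ± 2098 against 83.7 CPM in the other chosen cells, in 37 of 40 cells against 18 of 469. Hhex, a transcription factor needed for delta cells of the mouse pancreas, had 500 CPM ± 127 and was detected in 34 of 40 cells against 8 of 469. Glp1r, the receptor of GLP-1, was detected in 29 of 40 Sst-led cells against 6 of 469 others, at 212 CPM ± 172. Pdx1, a factor of the pancreas and duodenum, had 113 CPM ± 54.8 in Sst-led cells and 21.4 CPM in Gip-led cells, and was at or under 8.47 CPM in the other 5 groups. Among genes of at least 50 CPM in every library, Cck-led cells had no such gene. After Cck itself, the 9 next genes had smallest ratios over the other chosen cells of 0.53 to 0.74 on the log2 scale. Rab3c, which did not reach that level in every library, was detected in 14 of 46 Cck-led cells against 26 of 463 others. In wild type 2, 13 of 19 Cck-led cells remained once cells with markers of other cell types were left out.

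Transcription factors shared by the lineage were graded across the groups. Isl1 was highest in Ghrl-led cells (1234 CPM ± 449) and Sst-led cells (1190 CPM ± 311) and lowest in Nts-led cells (187 CPM ± 48.5). Neurod1 went the other way, at 821 CPM ± 281 in Nts-led cells, 930 CPM ± 538 in Pyy-led cells and 76.5 CPM ± 41.7 in Sst-led cells. Etv1, known from L cells, was highest in Gcg-led cells at 990 CPM ± 479 and lowest in Sst-led cells at 16.2 CPM. The granin Chga was lowest in Gip-led cells (98.0 CPM ± 23.1), where Chgb had 4341 CPM ± 1488. Onecut3, a proximal factor, averaged 163 CPM ± 141 in Cck-led cells, where mutant 2 alone had 374 CPM.

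**Figure D4:**
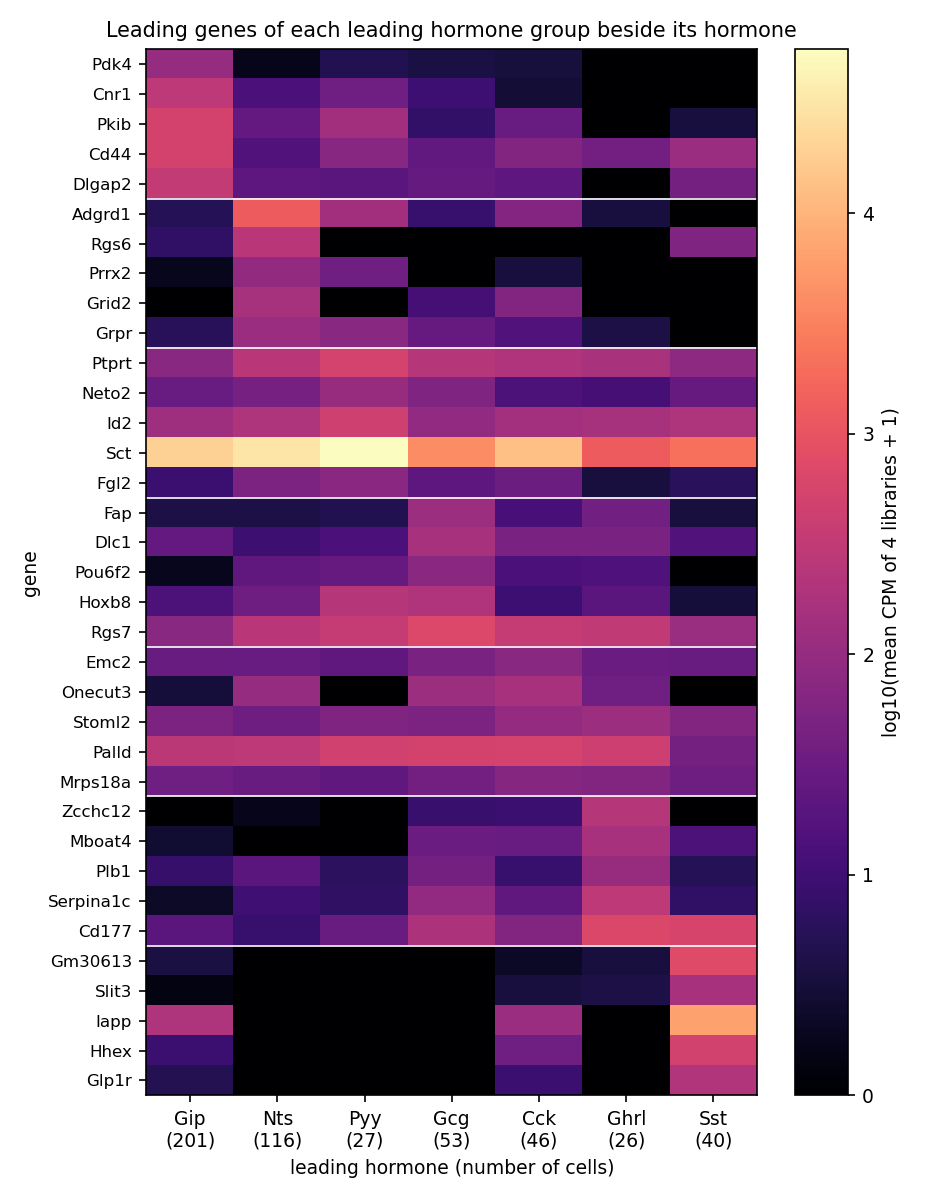
Levels of 5 of the top genes of each leading hormone group beside its own hormone (rows, in blocks parted by white lines) in every leading hormone group (columns), as log10 of the mean CPM over the 4 libraries plus 1. The Sst-led column holds Iapp at 6555 CPM and Hhex at 500 CPM, and the Gip-led column holds Cnr1 at 288 CPM.

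Against the other kept barcodes, 7.68% of 11558 genes with at least 5 CPM in either were over 4-fold higher in the chosen cells in all 4 libraries, and 0.121% were over 4-fold lower. Of the 17 general enteroendocrine genes, 17 were over 4-fold higher. Of 21 genes of prohormone processing and granules, 16 were, led by the granin Scg2 at 597 and 704 CPM in the mutant libraries and 888 and 939 CPM in the wild type libraries, against 0.43 to 1.48 CPM in the other barcodes, and by the carboxypeptidase Cpe at a mean of 1625 CPM ± 254 (SD, 4 libraries). Of the exocytosis machinery 12 of 16 were, and of ion channels and excitability genes 15 of 17, among them the calcium channel subunit Cacnb2 at 282 CPM ± 74.9 against 0.81 CPM. Among transcription factors 18 of 28 were, with Isl1 at 583 CPM ± 56.8, Etv1 at 373 CPM ± 125 and Pax6 at 270 CPM ± 53.1. Nutrient and bile acid receptors reached this in 6 of 14 and hormone receptors in 6 of 10. None of 13 mitochondrially encoded mRNAs, 36 complex I subunits or 45 cytosolic ribosomal proteins did.

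Between genotypes, the UMIs of the chosen cells were summed per library and tested with the edgeR quasi-likelihood test. No gene of 10259 tested passed an adjusted p of 0.05 (0% called), and 446 genes (4.35%) had an unadjusted p under 0.05. DESeq2 on the same sums called 3 genes, lower Dclk1 and Rgs13 and higher Ube2c in mutant cells. The count moved with the libraries: edgeR called 1 gene without mutant 1, 48 without mutant 2, 18 without wild type 1 and 217 without wild type 2, where the lone library of a genotype is assumed to vary like the other genotype. The fit leaves 2 residual degrees of freedom. On simulated sums of these libraries it recovered 88 of 100 simulated 4-fold changes but 18 of 100 simulated 2-fold changes, so 2-fold differences were mostly not detectable at this size. With the set as a batch term, which leaves 1 residual degree of freedom, edgeR called 33 genes (0.322%), 28 higher (0.273%) and 5 lower (0.0487%) in mutant cells, with 8.73% of genes at an unadjusted p under 0.05. That fit recovered 80 of 100 simulated 4-fold changes and 37 of 100 simulated 2-fold changes, with 0 false calls. With the spread of the simulated counts set gene by gene, it recovered 90 and 40 of 100, with 13 false calls. The fit without the set term made 4 false calls, and 14 with the spread set gene by gene.

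The 5 genes called lower in that fit were Rgs13, Dclk1, Lrmp, Dgki and Clca4a. Dgki, a diacylglycerol kinase, had 9.16 and 13.9 CPM in mutant cells against 51.4 and 53.4 CPM in wild type cells (log2 ratio -2.22, SE 0.311, edgeR adjusted p = 0.00527), in CPM scaled by TMM as for the genes that follow. The groups did not overlap. Of the genes called higher, Nrg1, a growth factor of the epidermal growth factor family, had 47.8 and 91.0 CPM in mutant cells against 14.9 and 21.8 CPM in wild type cells (log2 ratio 1.86, SE 0.265). H2-Eb1, a chain of MHC class II, had 196 and 138 CPM in mutant cells against 92.7 and 46.5 CPM in wild type cells (log2 ratio 1.28, SE 0.203). Mgst1, a microsomal glutathione transferase, had 167 and 119 CPM against 53.2 and 56.4 CPM in wild type cells. The mitochondrial aldehyde dehydrogenase Aldh1b1 had 222 and 132 CPM in mutant cells against 82.5 and 70.3 CPM in wild type cells, and the mitochondrial ornithine aminotransferase Oat had 517 and 316 CPM against 191 and 182 CPM in wild type cells. All 5 of these higher genes had both mutant libraries above both wild type libraries. They were picked from called genes, so this separation is no further support. Of all genes tested, 25.4% were higher in the mutant of both sets. The edgeR fit without the set term gave these 5 genes adjusted p from 0.545 to 0.987. Of genes with no call, Ppm1e, a protein phosphatase, was among the 5 furthest lower in mutant cells, at 37.9 and 54.4 CPM against 106 and 92.1 CPM in wild type cells (log2 ratio -1.12, SE 0.25).

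At least another 10 of the 28 higher genes encode Paneth cell products, among them 7 genes named as alpha-defensins, Lyz1, Ang4 and the pentraxin Mptx2. The alpha-defensin genes are near-identical copies, so counts between them are uncertain. Defa21 had 676 and 6312 CPM in mutant cells against 250 and 2113 CPM in wild type cells. The value of mutant 2 came mostly from 1 cell: of 33639 UMIs of 14 Paneth genes in its chosen cells, 27356 (81.3%) were in 1 Gip-led cell of 48650 UMIs that scrublet called a doublet. Without the cell with most UMIs of the gene in each library, the log2 ratio of Defa21 was -0.25, and without called doublets it was -0.69. The other barcodes of set B also held more Paneth RNA, at 90737 and 69769 CPM in mutant 2 and wild type 2 against 44093 and 26589 CPM in mutant 1 and wild type 1.

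Genes that make respiratory subunits and ribosomes were placed higher in mutant cells as groups. Of 10259 genes, 25.4% were higher in the mutant of both sets and 29.1% were lower, with a median log2 ratio of -0.01. Of 45 cytosolic ribosomal protein genes, 43 were higher in both sets and none was lower in both, with a median of 0.45, and 0 were called. Their sum was 68149 and 62365 CPM in the mutant cells of set A and set B against 46420 and 51059 CPM in wild type cells, while in the other barcodes it was 107933 and 96255 CPM against 103276 and 95227 CPM in wild type. The median for the chosen cells stayed between 0.35 and 0.57 in each of the alternatives run. Of 36 nuclear subunits of complexes III, IV and V, 31 were higher in both sets (median 0.31), for example Cox5a, a subunit of cytochrome oxidase, at 732 and 793 CPM in mutant cells against 360 and 513 CPM in wild type cells. Of 36 nuclear complex I subunits, 25 were higher in both sets (median 0.23), for example Ndufab1 at 246 and 257 CPM against 145 and 171 CPM in wild type cells. Without wild type 1 these medians were 0.12 for complexes III to V and 0.13 for complex I, without mutant 2 they were 0.19 and 0.16, without mutant 1 they were 0.49 and 0.39, and without wild type 2 they were 0.61 and 0.44. No gene of these lists passed the test in either fit. Lists of other cells and states moved beside them: 7 of 10 stem and crypt genes (median 0.69), 7 of 16 cell cycle genes (median 1.15) and 13 of 14 Paneth genes (median 0.93) were higher in the mutant of both sets. Summed stem and crypt genes had 2296 and 1320 CPM in mutant cells against 582 and 910 CPM in wild type cells, and summed cell cycle genes 2073 and 962 CPM against 560 and 945 CPM in wild type cells. The part of these lists in the ribosomal and respiratory differences was not tested.

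Of the 13 mRNAs encoded by mitochondrial DNA, which the mutated tRNA serves, 7 were higher and 1 was lower in the mutant of both sets, with a median log2 ratio of 0.32. Cytochrome b had the highest ratio: mt-Cytb had 4087 and 4341 CPM in mutant cells against 2060 and 2919 CPM in wild type cells, with no overlap (log2 ratio 0.76, SE 0.31, edgeR adjusted p = 0.987). The complex I subunit mt-Nd1 had 3081 and 3361 CPM in mutant cells against 1790 and 2482 CPM in wild type cells. mt-Nd6, encoded on the other strand, had 35.3 and 38.6 CPM in mutant cells against 44.2 and 52.5 CPM in wild type cells (log2 ratio -0.38, SE 0.26). mt-Co1, a cytochrome oxidase subunit, had 4787 and 6037 CPM against 4432 and 6477 CPM in wild type cells, which overlap. The remaining 9 mRNAs had log2 ratios from 0.11 to 0.69. Without wild type 1 the median of the list was 0.06 and 7 of 13 were above 0, and with cells of a hormone sum of 10 or more it was 0.13. Of 29 genes of the integrated stress response tested, which mitochondrial translation defects are known to engage in other tissues, 10 were higher and 12 lower in the mutant of both sets, with a median of -0.10.

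Secretory genes were placed lower in mutant cells as groups, and none of them was called. Of 16 genes of the exocytosis machinery, 13 were lower in the mutant of both sets, with a median log2 ratio of -0.39. Synaptotagmin 7, a calcium sensor of granule release, had Syt7 at 114 and 117 CPM in mutant cells against 200 and 168 CPM in wild type cells (log2 ratio -0.67, SE 0.21, edgeR adjusted p = 0.987), and the membrane fusion protein Snap25 had 107 and 92.0 CPM against 147 and 124 CPM in wild type cells. The 1 gene higher in both sets was Rab3c, at 19.6 and 34.6 CPM in mutant cells against 3.59 and 17.8 CPM in wild type cells. Of 17 ion channel and excitability genes, 15 were lower in both sets (median -0.35), such as Cacnb2 at 202 and 247 CPM against 362 and 330 CPM in wild type cells and the potassium channel Kcnj11 at 9.16 and 17.8 CPM against 20.9 and 32.7 CPM in wild type cells. Of 20 prohormone processing and granule genes, 13 were lower in both sets and none was higher in both (median -0.25), with Resp18 at 179 and 161 CPM against 299 and 239 CPM in wild type cells and Scg2 at 593 and 737 CPM against 880 and 964 CPM in wild type cells. Nutrient receptors had 6 of 13 lower in both sets, among them the lipid receptor Gpr119 at 44.5 and 18.8 CPM in mutant cells against 64.6 and 39.6 CPM in wild type cells. The median of the exocytosis list ran from -0.46 to -0.21 over the alternatives, that of the granule list from -0.56 to -0.15. Median depth per cell was lower in the mutant in set A (6296 against 12886 UMIs in wild type) but not in set B (9636 against 9307 UMIs in wild type), and its part in these differences was not tested. Enteroendocrine genes of other functions also lay lower, with 8 of the 17 general enteroendocrine genes lower and 0 higher in both sets (median -0.19), and 14 lower and 4 higher of 27 transcription factors (median -0.13). The 17 general genes summed to 7285 and 10926 CPM in mutant cells against 10970 and 10879 CPM in wild type cells. The part of these genes, and of the higher stem, cell cycle and Paneth genes given above, in the secretory differences was not tested.

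Of 19 heat shock and immediate early genes, 13 were lower in the mutant of both sets (median -0.41), for example the transcription factor Jun at 123 and 71.2 CPM in mutant cells against 261 and 87.1 CPM in wild type cells. Without wild type 1 that median was 0.18. Of 17 MHC genes 12 were higher in both sets (median 0.40), and 1, H2-Eb1, passed the test with the set term. The MHC median was 0.61 without mutant 2 and 1.04 without wild type 1, but 0.02 without mutant 1 and 0.14 without wild type 2. Fabp6, a bile acid binding protein of the ileum, had 203 and 372 CPM in mutant cells against 131 and 118 CPM in wild type cells. Of the 13 distal intestine genes tested, 5 were higher and 1 was lower in the mutant of both sets (median 0.10). Of 12 proximal intestine genes, 7 were higher and 3 were lower (median 0.28).

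A further test asked whether the mutant to wild type difference in the chosen cells differed from that in the 32363 other kept barcodes of the same libraries. The edgeR test of this interaction, with each library as a block, called 14 of 16782 genes (0.0834%): 11 (0.0655%) shifted up and 3 (0.0179%) shifted down in mutant enteroendocrine cells relative to the rest. Without called doublets 15 genes were called, and Reg4, Clca3a2, Htr4 and Cdca8 were the 4 of the 14 among them; with cells of a hormone sum of 10 or more, 6 were called, all among the 14, and with 50 or more, 65 were called, with 13 of the 14 among them. Leaving out a library gave 68 calls without mutant 1, 144 without mutant 2, 46 without wild type 1 and 255 without wild type 2. None of the 17 general enteroendocrine genes, the 13 mitochondrially encoded mRNAs or the 45 ribosomal protein genes was among the 14. At the called share of 0.0834% over all genes, lists this short would seldom hold a called gene.

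Of the 11 genes that shifted up, 4 belong to cell division. Ube2c (chr2:164769898-164778822), a ubiquitin-conjugating enzyme of the anaphase-promoting complex, had 199 and 86.9 CPM in mutant enteroendocrine cells against 35.0 and 40.5 CPM in wild type, while in the other barcodes it had 403 and 223 CPM in mutant against 265 and 225 CPM in wild type (log2 difference 1.49, SE 0.231, edgeR adjusted p = 0.00599). The genotypes did not overlap in the enteroendocrine cells and overlapped in the rest. Cdca8, a mitotic chromosomal passenger protein, had 42.8 and 26.4 CPM against 9.05 and 9.64 CPM in wild type (log2 difference 1.74, SE 0.316). Cdkn3, a cell cycle phosphatase, had 23 and 9 UMIs in mutant cells against 2 and 1 UMIs in wild type cells. Kif23, a kinesin of cell division, had 53 and 17 UMIs against 5 and 8 UMIs in wild type cells. These UMIs were spread over 22 and 9 mutant cells for Kif23, and over 50 of 204 and 25 of 92 mutant cells for Ube2c, against 24 of 109 and 19 of 104 wild type cells. Cells with at least 20 UMIs per 10000 of 18 cell cycle genes were 30 of 204 (14.7%) in mutant 1 and 4 of 92 (4.35%) in mutant 2, against 10 of 109 (9.17%) in wild type 1 and 3 of 104 (2.88%) in wild type 2, so the genotypes overlapped, with 31.6% to 47.4% in the other barcodes.

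Lgr5 (chr10:115450311-115587780), the receptor that marks crypt stem cells, had 26.3 and 58.6 CPM in mutant enteroendocrine cells against 16.3 and 12.5 CPM in wild type, and 54.7 and 60.4 CPM in the other barcodes of mutant against 90.5 and 85.0 CPM in wild type (log2 difference 2.00, SE 0.321, edgeR adjusted p = 0.0082). It was detected in 15 of 204 and 18 of 92 mutant cells and in 12 of 109 and 8 of 104 wild type cells. The serotonin receptor Htr4 had 44 and 15 UMIs in mutant cells against 1 and 5 UMIs in wild type cells (log2 difference 3.51, SE 0.545). Clca3a2, a member of the Clca family, had 40.1 and 34.9 CPM in mutant enteroendocrine cells against 6.03 and 12.5 CPM in wild type (log2 difference 2.25, SE 0.336), and the transcript 2210407C18Rik had 27.0 and 66.1 CPM against 6.03 and 14.5 CPM in wild type (log2 difference 2.17, SE 0.312). For these 4 genes both mutant libraries lay above both wild type libraries in the enteroendocrine cells and at or below wild type in at least 1 set of the other barcodes. These genes were picked by the call, so this separation is no further support.

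Reg3g (chr6:78466269-78468872), an antibacterial lectin of the epithelium, had 412 and 730 CPM in mutant enteroendocrine cells against 271 and 154 CPM in wild type, and 1844 and 3098 CPM against 3001 and 1845 CPM in wild type in the other barcodes (log2 difference 1.34, SE 0.195). Clca1, a goblet cell product, had 86.2 and 82.2 CPM against 82.0 and 31.8 CPM in wild type, with 45.6% of its UMIs in wild type 1 and 69.0% in mutant 2 from 1 cell (log2 difference 1.30, SE 0.236). Reg4 (chr3:98222156-98236748), a lectin of the deep crypt and of enterochromaffin cells, had 119 and 84.0 CPM in mutant enteroendocrine cells against 9.65 and 40.5 CPM in wild type (log2 difference 2.24, SE 0.292). Its UMIs were concentrated: 87 of 181 in mutant 1 were in 1 Gcg-led cell and 68 of 89 in mutant 2 in 1 Pyy-led cell. Without the top cell of each gene in each library, 11 of the 14 genes were still called, namely the 11 that shifted up. That setting called 155 genes in all, so staying called in it is weak support. Without called doublets, 4 of the 14 were called.

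The 3 genes that shifted down, Dclk1, Rgs13 and Lrmp, mark tuft cells, the chemosensory cells of the same epithelium. Dclk1 had 0 and 2 UMIs in mutant enteroendocrine cells against 47 and 69 UMIs in wild type (log2 difference -5.97, SE 0.633), a UMI ratio of 0.0180 with an exact counting interval of 0.00216 to 0.0666. The interval treats UMIs as independent, although those of wild type were mostly in 1 cell per library, so it says nothing about the genotypes. Rgs13 had 0 and 1 UMIs against 65 and 45 UMIs in wild type, and Lrmp had 0 and 1 UMIs against 54 and 28 UMIs in wild type. In wild type 1 all 166 UMIs of the 3 genes were in 1 Gip-led cell, and in wild type 2, 136 of 142 were in 1 Nts-led cell that scrublet called a doublet and that held a hormone sum of 129 per 10000. Without the top cell of each gene in each library, the edgeR adjusted p was 1 for each of the 3 genes. The result thus rests on 2 cells.

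**Figure D5:**
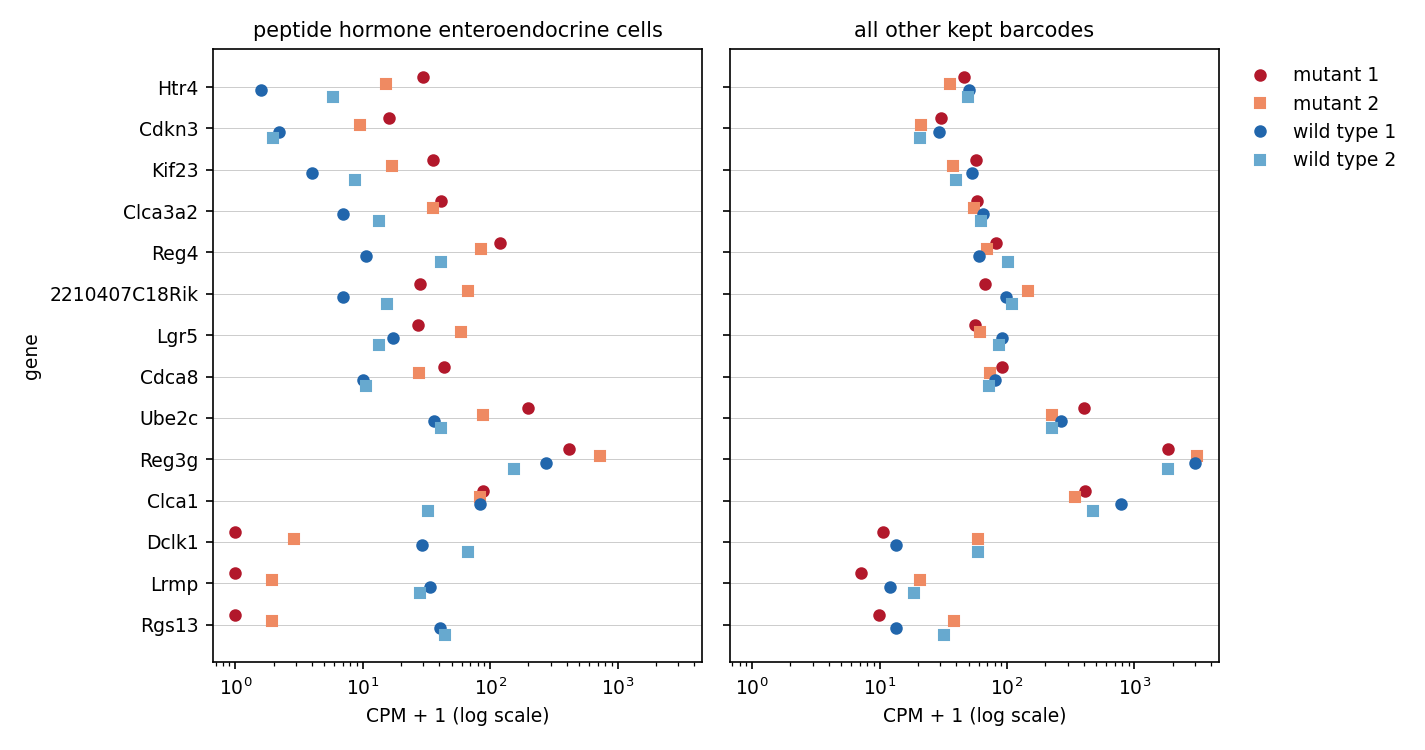
Level of the 14 called genes (rows) as CPM + 1 on a log scale in each library, in peptide hormone enteroendocrine cells (left) and in the other kept barcodes (right); each point is 1 library. On the left, both mutant points of Htr4 lie right of both wild type points, and those of Dclk1, Lrmp and Rgs13 lie left of them.

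Some chosen cells also held RNA of other epithelial types. At 20 UMIs per 10000 of a tuft gene list, or 500 of the Paneth, goblet or enterocyte lists, 8 and 1 cells in mutant 1 and mutant 2 and 4 and 10 cells in wild type 1 and wild type 2 were counted, and no cell reached 20 for 14 T cell genes. Paneth genes reached the mark in 7 cells of wild type 2 and 1 cell of mutant 2, goblet genes in 4 cells of mutant 1 and 3 of wild type 1. Whether such cells are doublets, free RNA or mixed cells was not tested. Without them, edgeR without the set term again called 0 genes, and the interaction called 52, 11 of them among the 14.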

How the data were processed

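The authors deposited raw UMI count matrices, 1 per library, made with Cell Ranger 7.0.0 for set A and 7.1.0 for set B per the file headers, on mm10 per the submitters' processing notes. Matrices were read with Python 3.11.15. Cells and gene lists were chosen with earlier results of these data known. Total counts per library ran from 99772712 to 127796409 UMIs over 5974 to 13805 barcodes, and 6.85% to 23.3% of barcodes had 30% or more mitochondrial UMIs and were left out. Counts were summed per library, filtered with filterByExpr, scaled by TMM and tested with edgeR 4.0.16 in R 4.3.3, calling genes at a Benjamini-Hochberg adjusted p under 0.05; DESeq2 1.42.0 was an alternative. CPM of the hormones, of leading hormone groups, of genes against other barcodes and of the interaction are plain counts per 1000000. So are the sums over gene lists, also where genotypes are compared. CPM of other single genes between genotypes are TMM-scaled. Log2 ratios within a set add 1 CPM. Doublets were called with scrublet in scanpy 1.11.5 at a rate of 0.8% per 1000 barcodes, and called cells were kept in the main tests. Genes were named by the lists, by the tests' calls and by the 10 genes furthest above the other cells in every library. Some of these genes are not reported here. The edgeR fit between genotypes, with and without the set term, was checked on simulated counts. The interaction test was not. Intervals and floors cover counting error only.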

Additional observations from a re-analysis of the deposited data

Results flagged for a closer look

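In 14 genes the mutant to wild type difference in peptide hormone enteroendocrine cells differed from that in the other kept barcodes by the edgeR interaction test, with every log2 difference taken as the ratio in enteroendocrine cells minus that in the rest. Among cell division genes it was 3.37 for Cdkn3, 2.32 for Kif23, 1.74 for Cdca8 and 1.49 for Ube2c. It was 3.51 for Htr4, 2.00 for the stem cell gene Lgr5, 2.24 for Reg4 and 1.34 for Reg3g. For the Clca genes it was 2.25 for Clca3a2 and 1.30 for Clca1, and for 2210407C18Rik it was 2.17. The tuft genes had -5.97 for Dclk1, -6.13 for Lrmp and -6.89 for Rgs13, with nearly all wild type UMIs in 1 cell of each library. Of the 14, 10 were not called once called doublets were left out: the 3 tuft genes, 2210407C18Rik, Reg3g, Ube2c, Lgr5, Clca1, Cdkn3 and Kif23. Their log2 differences without called doublets were -5.74 for Dclk1, -5.27 for Lrmp and -6.03 for Rgs13, 2.91 for Cdkn3, 2.41 for Kif23, 1.83 for Lgr5, 1.25 for Ube2c and 1.24 for 2210407C18Rik, and 0.76 for Reg3g and 0.34 for Clca1, so each kept its sign.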

How the results depend on the processing

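The count of genes called between genotypes, 0 in edgeR, was 1 with DESeq2 size factors, 3 in DESeq2, 77 without a filter on low counts, 33 with the set as a batch term, 7 in DESeq2 with that term, and 1 with a hormone sum of 10 or more. With the set term it was 104 in cells with at least 5 UMIs per 10000 of enteroendocrine genes, 75 without cells with markers of other types and 28 without the top cell of each gene, and 33, 23 and 17 of the 33 genes were among these. Leaving out 1 library gave 1 to 217 calls. The interaction count, 14, was 24 with DESeq2 size factors, 116 without the filter, 6 with a hormone sum of 10 or more, 65 with 50 or more, 22 with mitochondrial UMIs under 15%, 25 in cells with enteroendocrine genes, 52 without cells with markers of other types, 155 without the top cell of each gene and 46 to 255 without 1 library. The difference in the share of cells ran from -0.986 to 0.149 points without 1 library. It turned to 0.149 without wild type 1, which leaves set A with its mutant library only. The mean Gcg-led share was 8.52% with a hormone sum of 10 or more. Directions turned for the Paneth genes, with the following log2 ratios. Without 1 library they ran from -0.81 to 3.83 (Defa21), -0.90 to 3.85 (Defa5), -0.52 to 3.68 (Defa22) and -0.92 to 4.50 (Mptx2), lowest without mutant 2 and highest without wild type 2. Without called doublets they were -0.69, -0.94, -0.42 and -0.83 for the same genes. Without the top cell they were -0.25, -0.52, -0.029 and -0.47, and with the set term as well -0.057 for Defa5 and -0.085 for Mptx2. The interaction of Lrmp was 0.15 without cells with markers of other types. The cause of these changes was not tested beyond the cells each setting leaves out. Of the other results for single genes, 290 kept direction and side of the threshold, 45 passed it only in the alternative and 36 only in the main test. The labels give no replicate numbers that pair the libraries, and the set term, which puts 1 mutant and 1 wild type library in each set, was the blocked fit run. The comparison with Tph1-positive hormone cells was not run, since wild type 2 held 0 of them, and tests within a leading hormone were not run, since the fewest Gip-led cells in a library were 32.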

Other observations

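Insl5 and Ppy, 2 peptide hormones outside the rule, had most of their UMIs in 1 cell in some libraries. Insl5, an L cell peptide of the distal gut, had 61 UMIs in the chosen cells of mutant 2, of which 60 were in 1 Pyy-led cell of 15587 UMIs, and 60 UMIs in wild type 2, of which 59 were in 1 Pyy-led cell of 9846 UMIs. Mutant 1 and wild type 1 had 5 and 1 UMIs of it. Ppy, pancreatic polypeptide, had 97 UMIs in mutant 1, 94 of them in 1 Nts-led cell, and 66 UMIs in wild type 2, 64 of them in 1 Nts-led cell, and scrublet called both cells doublets. Mutant 2 had 0 Ppy UMIs in its chosen cells. Each of the 4 libraries held Iapp, at 482 and 540 CPM in mutant and 405 and 963 CPM in wild type, mostly in Sst-led cells.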
